A study of Mus musculus with 10 samples.

Results

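Of 74751 genomic regions listed for H3K9lc, lactylation of lysine 9 on histone H3, 4424 (5.92%) shared at least 1 bp with a region listed for the transcription factor JUN. These overlapping regions, called members here, are described below. The members were found by overlap of coordinates: both sets come from CUT&Tag of primary mouse cardiac fibroblasts. No read count or ratio entered the overlap rule. Nearly all listed regions were peaks called from the same libraries, however, so the differences below are not independent of the listing. The remaining 70327 H3K9lc regions share no base with any JUN region and serve as the comparison, and 4434 of the 72990 JUN regions (6.07%) take part in the overlap. All cells behind the 4 libraries used for the main comparison were treated with TGF-β. The pair called TGF had TGF-β, and the pair called siHK1 (titled SI for H3K9lc and SIHK1 for JUN) came from cells transfected with an siRNA against Hk1 before TGF-β. Of the members, 47.0% had an H3K9lc peak called in TGF only, 18.8% in siHK1 only and 34.0% in both. A control library without TGF-β, called NC, and pairs of TGF and siHK1 libraries for SMAD3 and NFATC2 were used as further readouts. The labels give neither the age or strain of the animals nor how many were pooled, and neither the siRNA sequence nor a non-targeting siRNA in the TGF pair is named in them. There was 1 library per condition and antibody, so no difference between conditions has a replicate error, no test was possible, and each statement compares libraries.

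Histone lactylation is the attachment of a lactyl group, derived from lactate, to lysines of histone tails, and it is found with other marks of active chromatin. Hexokinase 1, encoded by Hk1, carries out the opening step of glycolysis, the pathway that leads to lactate. JUN is a subunit of AP-1, a dimer of JUN with FOS-type or other JUN-type proteins that binds a short palindrome-like DNA element in promoters and enhancers. In fibroblasts AP-1 acts with SMAD3, the transcription factor activated by TGF-β receptors, on genes of the extracellular matrix, and NFATC2 is a calcineurin-dependent factor that can bind DNA together with AP-1.

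The AP-1 element searched for was TGAGTCA or its reverse complement TGACTCA, in the central 200 bp of each region. Among members of the highest and lowest values (chosen by the rule given with the methods), 3 carried it, where 10.3% of all members did. In the member assigned to Lrrc4c it lies outside the JUN region. All 3 belonged to the group chosen for the lowest H3K9lc difference. Their central 200 bases on GRCm38, plus strand, are shown with the AP-1 letters in capitals, at chr5:88983313-88983512 for the region assigned to Slc4a4, chr14:42134699-42134898 for 1700091H14Rik and chr2:95390492-95390691 for Lrrc4c.
Slc4a4: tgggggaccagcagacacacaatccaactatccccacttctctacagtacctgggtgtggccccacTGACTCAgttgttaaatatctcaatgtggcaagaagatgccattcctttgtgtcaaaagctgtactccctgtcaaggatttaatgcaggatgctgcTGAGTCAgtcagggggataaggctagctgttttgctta
1700091H14Rik: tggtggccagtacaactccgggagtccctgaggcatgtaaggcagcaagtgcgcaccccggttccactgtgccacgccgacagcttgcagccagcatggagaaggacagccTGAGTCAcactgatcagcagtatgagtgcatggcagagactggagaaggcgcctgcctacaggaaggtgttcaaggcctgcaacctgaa
Lrrc4c: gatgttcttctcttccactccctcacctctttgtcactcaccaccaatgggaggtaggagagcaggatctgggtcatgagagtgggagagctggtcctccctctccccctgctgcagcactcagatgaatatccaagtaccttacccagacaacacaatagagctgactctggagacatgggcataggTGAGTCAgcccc

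The next sequences belong to members assigned to genes of matrix, TGF-β signalling and glycolysis, since these are the genes through which the overlap would be read in a fibroblast. They lie at chr17:14546036-14546235 (Thbs2, thrombospondin 2, a matricellular protein), chr2:173321311-173321510 (Pmepa1, an inhibitor of TGF-β signalling), chr13:56614486-56614685 (Tgfbi, a TGF-β-induced matrix protein), chr7:34234061-34234260 (Gpi1, glucose-6-phosphate isomerase) and chr9:44040006-44040205 (Thy1, a fibroblast surface glycoprotein). Each held a single AP-1 element. The regions lie 124559 bp (Thbs2), 44751 bp (Pmepa1), 4814 bp (Tgfbi), 3646 bp (Gpi1) and 3128 bp (Thy1) from the assigned gene start.
Thbs2: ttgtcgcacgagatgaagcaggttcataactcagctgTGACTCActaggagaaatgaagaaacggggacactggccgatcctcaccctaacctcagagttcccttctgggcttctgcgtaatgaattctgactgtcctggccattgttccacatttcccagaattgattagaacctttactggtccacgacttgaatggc
Pmepa1: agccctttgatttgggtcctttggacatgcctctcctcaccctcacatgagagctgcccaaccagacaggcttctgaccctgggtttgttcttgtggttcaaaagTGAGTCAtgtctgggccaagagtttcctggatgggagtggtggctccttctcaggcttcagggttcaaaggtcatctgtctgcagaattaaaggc
Tgfbi: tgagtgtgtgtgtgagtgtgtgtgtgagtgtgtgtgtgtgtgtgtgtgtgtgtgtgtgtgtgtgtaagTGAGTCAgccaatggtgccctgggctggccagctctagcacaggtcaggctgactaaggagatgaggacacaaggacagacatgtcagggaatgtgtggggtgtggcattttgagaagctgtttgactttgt
Gpi1: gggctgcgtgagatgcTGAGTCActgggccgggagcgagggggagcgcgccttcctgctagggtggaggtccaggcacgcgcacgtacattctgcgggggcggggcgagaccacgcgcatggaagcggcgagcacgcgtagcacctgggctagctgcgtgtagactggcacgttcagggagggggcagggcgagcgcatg
Thy1: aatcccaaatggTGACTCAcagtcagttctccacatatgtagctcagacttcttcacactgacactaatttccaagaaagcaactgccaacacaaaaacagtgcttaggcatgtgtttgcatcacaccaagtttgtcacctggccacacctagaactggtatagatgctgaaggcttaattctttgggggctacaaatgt

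A further pair shows the members with the AP-1 element that carried among the most JUN reads. The region assigned to Camk2d, a calcium/calmodulin-dependent kinase of the heart, held 1 element at chr3:126831521-126831720. The region assigned to Ankrd12 held 6 elements within 200 bases at chr17:65961817-65962016, in a stretch of short near-repeats.
Camk2d: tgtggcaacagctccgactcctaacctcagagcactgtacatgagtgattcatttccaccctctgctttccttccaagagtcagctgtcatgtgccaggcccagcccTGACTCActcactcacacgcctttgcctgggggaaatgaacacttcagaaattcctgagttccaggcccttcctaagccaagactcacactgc
Ankrd12: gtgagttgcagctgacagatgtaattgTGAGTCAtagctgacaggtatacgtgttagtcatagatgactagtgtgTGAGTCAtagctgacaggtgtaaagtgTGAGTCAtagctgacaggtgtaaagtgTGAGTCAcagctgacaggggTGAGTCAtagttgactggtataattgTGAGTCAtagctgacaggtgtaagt

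Many members look different from these. The member assigned to Rab10os at chr12:3109872-3110107, 125 kb from the start of that gene, was among the 6 with most H3K9lc reads per kb. It had no AP-1 element, 100% of its bases are soft-masked as repeat in the reference, and 86.9% of its 31-mers occur at more than 1 place in the genome.
Rab10os: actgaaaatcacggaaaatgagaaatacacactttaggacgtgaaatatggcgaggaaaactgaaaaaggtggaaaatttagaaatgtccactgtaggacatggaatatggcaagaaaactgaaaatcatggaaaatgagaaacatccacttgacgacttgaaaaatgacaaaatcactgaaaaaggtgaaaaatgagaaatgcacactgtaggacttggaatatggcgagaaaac

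The summed reads over all listed regions were 2490853 (TGF) and 1419023 (siHK1) for H3K9lc and 4215447 and 2271336 for JUN. An siHK1 library that differed in nothing but depth would therefore show a raw siHK1/TGF ratio near 0.570 for H3K9lc and near 0.539 for JUN. If every region lost signal alike, that cannot be told apart from depth, and in such bulk libraries fewer marked cells cannot be told apart from less mark per cell. At single-copy members the median was 15 H3K9lc reads in TGF and 7 in siHK1, and 58 and 31 JUN reads, so single members are measured with few H3K9lc reads. Unless said otherwise, a difference is siHK1 minus TGF of the deposited normalized log2 levels. Beside it stand raw reads, with the exact 95% interval of the raw ratio where one is given, which covers counting error only. As a check of the cell type, 13 of 14 cardiac fibroblast markers had a JUN region within 3 kb of their start (all but Lum), with 23 to 588 TGF reads per gene and 2399 in all. The same was true of 2 of 12 cardiomyocyte markers (132 TGF reads in all; Actc1, Myh7, Myl2, Myl7, Nkx2-5, Nppa, Pln, Ryr2, Tnnt2 and Ttn had none), 6 of 10 endothelial markers (218), 5 of 10 leukocyte markers (447, with none at Ptprc and Adgre1) and 4 of 9 smooth muscle and pericyte markers (218). In siHK1 the JUN sums were 1313, 56, 112, 261 and 96. For H3K9lc, 3 of the 14 fibroblast markers had a region there (54 TGF and 14 siHK1 reads), as did 3 of 12 cardiomyocyte (16 and 10), 2 of 10 endothelial (65 and 30), 0 of 10 leukocyte and 1 of 9 smooth muscle and pericyte markers (71 and 43). Their part in the results below was not tested.

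The overlap was mostly deep rather than marginal. Members shared a median of 290 bp with their JUN region (quartiles 222 and 414), and 3511 members (79.4%) shared at least 50% of their own length. The midpoints of the paired regions lay a median of 102 bp apart. The median width was 377 bp for members, 362 bp for H3K9lc regions without JUN and 557 bp for the JUN partners. The 4424 members pointed to 4379 different JUN regions, and 60 members touched more than 1. At the edge of the rule, 41 members shared under 10 bp. The smallest overlap was 2 bp, at Rbm12b1 (4 H3K9lc reads in TGF and 3 in siHK1), followed by 3 bp at Ly86 (10 and 4). On the other side, a region assigned to Htatsf1 (10 and 9 reads) touched a JUN region without sharing a base, and 154 regions without JUN lay within 100 bp of one. The typical region without JUN was far from any, at a median of 43779 bp.

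Members lay at promoters far more often than other H3K9lc regions. Within 3 kb of a gene start lay 1047 members (23.7%, exact 95% interval 22.4 to 24.9%), against 4023 of the H3K9lc regions without JUN (5.72%, 5.55 to 5.89%). JUN regions without H3K9lc had a share of 25.7%, so that the members resembled JUN regions in this respect. Within 1 kb of a start the shares were 18.2%, 2.47% and 18.3%. Distal intergenic regions made up 1902 members (43.0%) against 66.7% of the H3K9lc regions without JUN, 1256 members (28.4%) lay in introns and 169 (3.82%) in exons, and 50 fell in the remaining small classes. Read the other way, 20.7% of all H3K9lc promoter regions were members, compared with 7.28% in introns and 3.90% in distal intergenic sequence. By chromosome the share ran from 1.74% on X to 10.5% on Y, where it rests on 19 of 181 regions. By H3K9lc level it was between 5.08% and 5.61% in deciles 1 to 9 of all regions and 11.7% in decile 10.

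**Figure D1:**
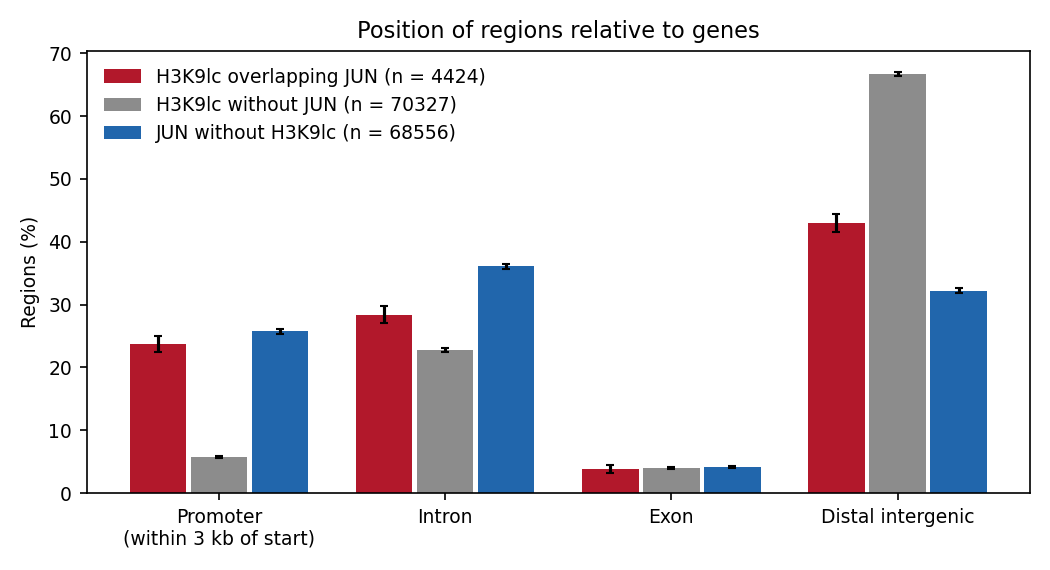
Share of regions (%) by position relative to genes for members (red), H3K9lc regions without JUN (grey) and JUN regions without H3K9lc (blue). Bars are shares and error bars exact 95% intervals, and at promoters the members (23.7%) stand near the JUN regions (25.7%) and far above other H3K9lc regions (5.72%).

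The members fell into a large group of unique sequence and a smaller group of repeated sequence that held most of the reads. A region was called multi-copy where at least 50% of its 31-mers occur at more than 1 place on the chromosomes, and single-copy otherwise, a split chosen after seeing the data. Reads from repeated sequence cannot be placed uniquely. Multi-copy were 1313 members (29.7%), against 47.9% of the H3K9lc regions without JUN and 2.66% of the JUN regions without H3K9lc. They held 68.2% of the members' H3K9lc reads in TGF and 31.9% of the JUN reads at their partners. Their median was 42 H3K9lc reads in TGF and 24 in siHK1, and 26 and 13 JUN reads. The split is not complete, since diverged copies and repeats collapsed in the reference pass as single-copy.

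The most heavily covered members were of this repeated kind or matched the mitochondrial genome. The leading member by reads per kb, at chr2:98666240-98667320 in an exon and assigned to Lrrc4c, had 42265 H3K9lc reads in TGF and 30866 in siHK1. At the same place JUN had 15742 and 13901 reads, SMAD3 and NFATC2 regions overlapped it, and the NC library had 7656 reads. The member at 2700054A10Rik had 52412 and 33960 H3K9lc reads but only 1370 and 876 JUN reads. The members at Fgf14, Mrgprd and Gm45871 had 13272, 9025 and 7021 H3K9lc reads in TGF, and 5277, 3747 and 2813 JUN reads. All of these overlapped SMAD3 and NFATC2 regions as well. By JUN reads, 3 neighbouring members assigned to Col19a1 ranked next to Lrrc4c, with 12945, 13576 and 8987 TGF reads. Every 31-mer of these 3 regions also occurs in the mitochondrial genome, as do at least 50% of the 31-mers of 7 members in all. Among single-copy promoters the most covered members were 3 regions at Rn45s, the ribosomal RNA precursor. They had 4549, 1906 and 1490 H3K9lc reads in TGF and 2327, 969 and 775 in siHK1, which are raw ratios of 0.512, 0.508 and 0.520. After them came promoters at Sfi1, a centrin-binding protein gene, and Pisd-ps1, which are neighbours on chromosome 11. These single-copy examples were picked after their values were seen. In all, 195 members with 500 or more H3K9lc reads in TGF held 78.5% of the members' reads, and 82 of these were single-copy.

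The median H3K9lc difference was lower at the single-copy members than at single-copy regions without JUN, while the ratio of their summed reads was not. In sums, siHK1/TGF was 0.569 (exact 95% interval 0.566 to 0.573) at single-copy members and 0.552 (0.550 to 0.554) without JUN, and above the table's median level the medians came closer, at -0.19 and -0.13. The sums are carried by the few members with very many reads, and the medians by the many with few. Over all members the median log2 difference was -0.20 (95% interval of the median -0.23 to -0.18), close to -0.19 for regions without JUN. The single-copy members had a median of -0.37 (-0.43 to -0.30, n = 3111), against -0.17 (-0.19 to -0.16, n = 36611) for single-copy regions without JUN. Among single-copy regions with an H3K9lc peak in both libraries the medians did not differ. They were 0.02 (-0.02 to 0.05, n = 670) at members and 0.02 (0.00 to 0.04, n = 5333) without JUN. The ratios of sums there were 0.592 (0.588 to 0.597) and 0.607 (0.603 to 0.611). With a peak only in TGF the medians were -0.90 at members and -0.70 without JUN, and with a peak only in siHK1 0.80 and 0.96. Of the single-copy members, 57.1% had a peak in TGF alone. The multi-copy members had -0.00 (-0.04 to 0.03), against -0.20 for multi-copy regions without JUN. At least 2-fold lower in siHK1 were 860 members (19.4%), where 16.4% of all H3K9lc regions were, and at least 2-fold higher 343 members (7.75%), where 10.6% were. Of single-copy members 781 were lower (25.1%) and 281 higher (9.03%), compared with 6968 and 5485 of the 36611 single-copy regions without JUN. Bringing both libraries to equal totals moved the median of all H3K9lc regions from -0.19 to -0.08 and left the order as it was, with -0.25 and -0.04 for single-copy regions with and without JUN. Under that scaling the multi-copy members stood at 0.04. The intervals treat regions as separate draws from 2 libraries and are not errors over replicates.

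By position, the contrast was widest at promoters. Single-copy promoter members had a median H3K9lc difference of -0.49 (-0.57 to -0.43, n = 883), against -0.11 (-0.14 to -0.06, n = 2951) for single-copy promoters without JUN. With equal totals the values were -0.35 and 0.02, so that the sign of the latter depends on the scaling. At least 2-fold lower were 30.2% against 17.8%, and at least 2-fold higher 7.36% against 17.6%. The ratio of summed reads was 0.517 (0.508 to 0.527) against 0.541 (0.533 to 0.548). Among those above the table's median level the medians were -0.33 (n = 310) and -0.09 (n = 1015), but the ratios of sums were 0.539 and 0.532. In introns the medians were -0.39 and -0.14, with ratios of sums of 0.552 and 0.563. In exons the medians were -0.27 (-0.51 to -0.06) and -0.12 (-0.19 to -0.08), with overlapping intervals. The ratios of sums went the other way, 0.650 and 0.574. Most of the 34306 H3K9lc reads in TGF at single-copy exon members, however, came from regions at Gm5458 (10579 and 6269) and Col19a1 (5259 and 3716). The exon ratio of 0.650 therefore rests mainly on these regions and does not describe exon members in general. Those at Col19a1 match the mitochondrial genome over their whole length. In distal intergenic sequence the medians were closer, at -0.27 (-0.31 to -0.19) and -0.20 (-0.22 to -0.19), with ratios of sums of 0.567 and 0.546. Above the median level the order of the medians turned there, with -0.09 at members and -0.15 elsewhere.

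**Figure D2:**
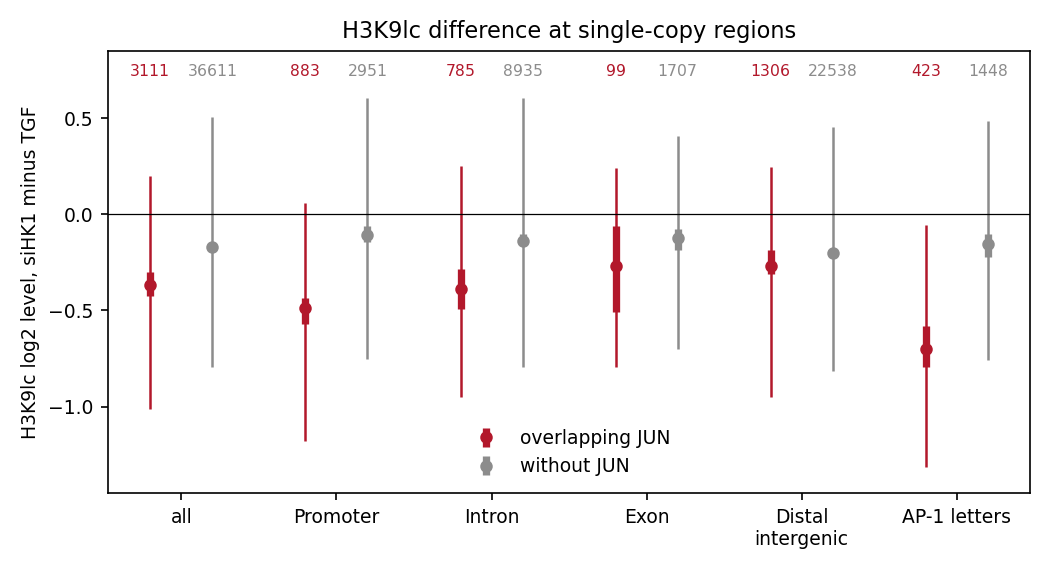
H3K9lc log2 difference (siHK1 minus TGF) at single-copy regions overlapping JUN (red) and without JUN (grey), by position and for regions with the AP-1 letters. Points are medians, thick bars 95% intervals of the median, thin lines quartiles and numbers the regions, and the members stand lower in each class, with medians from -0.27 to -0.70.

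Members and other regions were also compared within quintiles of the H3K9lc level (mean of both normalized log2 levels over the whole table), since low counts move a log2 difference. For the sums of raw reads, which need no pseudocount, the siHK1/TGF ratio at single-copy members was 0.377 (exact 95% interval 0.357 to 0.398) in quintile 1, against 0.558 (0.550 to 0.566) without JUN. In quintiles 2 to 4 it was 0.441, 0.467 and 0.480, against 0.529, 0.539 and 0.550. In quintile 5 the order turned, with 0.590 (0.586 to 0.594) at members and 0.566 (0.562 to 0.569) without JUN. The lower H3K9lc reads at members in siHK1 were thus seen in 4 of the 5 level classes. This order was not seen in the highest class, which holds most of the members' reads. The classes were not split by peak call. Single-copy members had a peak only in siHK1 less often (21.0%) than single-copy regions without JUN (30.0%). These ratios are therefore not separate from how the regions were listed. The JUN ratio at the same members, from H3K9lc quintile 1 to 5, was 0.532, 0.536, 0.545, 0.548 and 0.607.

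Single-copy members with the AP-1 element were lower still. The 423 with TGAGTCA or TGACTCA in the central 200 bp had a median H3K9lc difference of -0.70 (-0.80 to -0.58), and 153 of them (36.2%) were at least 2-fold lower, against 18 (4.26%) higher. The 2688 without it had -0.29 (-0.37 to -0.28), with 23.4% lower and 9.78% higher. The 1448 regions with the element but no JUN overlap had -0.16 (-0.22 to -0.10), near the value of all regions without JUN. In raw reads the ratio of sums was 0.475 (0.461 to 0.489) with the element and 0.575 (0.571 to 0.579) without it. JUN itself differed little between these members, with medians of -0.02 and -0.07. Members with the element had more JUN reads, at a median of 99 in TGF against 53, and the same median of 15 H3K9lc reads.

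The 6 members with the lowest H3K9lc difference, among the 2209 above the members' median level, included 2 promoters. At the start of Zbtb38, which encodes a zinc finger protein that binds methylated DNA, H3K9lc had 39 reads in TGF against 5 in siHK1, a raw ratio of 0.128 (0.0394 to 0.326) and a log2 difference of -2.13. JUN there had 298 and 168 reads, a ratio of 0.564 near that of the whole table. The Slc4a4 region with its pair of AP-1 elements, for a bicarbonate cotransporter gene, had 33 and 5 H3K9lc reads and 102 and 88 JUN reads. The Lrrc4c region with the element had 33 and 5 H3K9lc reads but only 7 and 5 JUN reads. Its element and the bases shown above lie outside the JUN region, chr2:95390747-95390982, whose JUN peak was called only in siHK1. The region of 1700091H14Rik, where 84.5% of 31-mers are repeated, had 32 and 5, and 16 and 8 for JUN. A multi-copy region near 4930517M08Rik had 57 and 9, and 47 and 24. At the promoter of Amn1 there were 41 and 7 H3K9lc reads and 74 and 41 JUN reads. All but the 4930517M08Rik region had an H3K9lc peak called only in TGF. These 6 regions were chosen for their H3K9lc difference, so that value is a description only. JUN was not used in the choice, and the interval of its ratio held the table's 0.539 in all but Slc4a4 (0.641 to 1.16).

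Other promoters of the same kind, picked after their values were seen, were Kdm1a, Aco1 and Pdcd10. Kdm1a, a histone lysine demethylase gene, had 52 and 9 H3K9lc reads (raw ratio 0.173, 0.075 to 0.354) and 294 and 265 JUN reads (0.901, 0.761 to 1.07). Its JUN ratio thus lay above the table's 0.539. Aco1, the iron-responsive cytosolic aconitase, had 34 and 6 H3K9lc reads and 151 and 88 JUN reads. Pdcd10, a gene of endothelial junction signalling, had 39 and 7, and 102 and 52. In all 3 the H3K9lc peak was called only in TGF, and the NC library had at most 1 read.

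At the other end, the 6 highest members had modest read numbers. The highest difference was at an intron region of Sec31a, a coat protein of vesicles leaving the endoplasmic reticulum, with 11 reads in TGF and 27 in siHK1 (raw ratio 2.45, 1.18 to 5.48). JUN there had 16 and 5 reads. A multi-copy region on chromosome Y assigned to 1700020D14Rik had 65 and 100 H3K9lc reads (1.54, 1.11 to 2.14). Nsun4, an RNA methyltransferase gene, had 10 and 17, and Zfp469, 11 and 18, with lower bounds of the raw ratio of 0.735 and 0.732, above the table's 0.570. As these are the highest of 2209, that follows in part from the choice. The others were Wdr48 (11 and 16) and Gm30498 (14 and 20). Of these 6 regions, those of Sec31a, Zfp469, Wdr48 and Gm30498 had a peak called only in siHK1.

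JUN was close to the rest of its table at the members. The median JUN difference at members was -0.08 (-0.10 to -0.07), against -0.13 for JUN regions without H3K9lc. At 490 members (11.1%) JUN was at least 2-fold lower in siHK1, where 13.7% of all JUN regions were, and at 175 (3.96%) at least 2-fold higher, where 5.66% were. Single-copy members had a median of -0.06 and promoter single-copy members -0.00 (-0.03 to 0.04). Multi-copy members had -0.17 (-0.22 to -0.13), the reverse of the order of the H3K9lc medians. In summed JUN reads the ratio was 0.662 (0.657 to 0.667) at multi-copy members and 0.559 (0.555 to 0.562) at single-copy members, the same order as for H3K9lc (0.657 and 0.569).

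The H3K9lc and JUN differences were nearly uncorrelated across members. Both were at least 2-fold lower at 60 members and both at least 2-fold higher at 18. H3K9lc was lower with JUN higher at 24, and higher with JUN lower at 50. Of the 860 members with lower H3K9lc, 6.98% also had lower JUN and 2.79% higher JUN, where 11.1% and 3.96% of all members did. Of the 343 with higher H3K9lc, 14.6% had lower JUN and 5.25% higher JUN. Spearman's rho between the differences was -0.04 over the 3111 single-copy members and 0.05 over the multi-copy ones. For the levels themselves (reads per kb in TGF) it was 0.25 and 0.33. These are descriptions across regions of the same 4 libraries, some of which share a JUN region. At a median of 15 and 7 H3K9lc reads per single-copy member, counting error alone weakens such a correlation. The small rho therefore does not show that the differences are unrelated. The members whose JUN region had a peak in both JUN libraries had the lower median H3K9lc difference, -0.53 for those 2055 single-copy members and -0.14 for the 829 with a JUN peak only in TGF. The ratios of their summed H3K9lc reads, 0.569 and 0.571, showed no such difference.

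**Figure D3:**
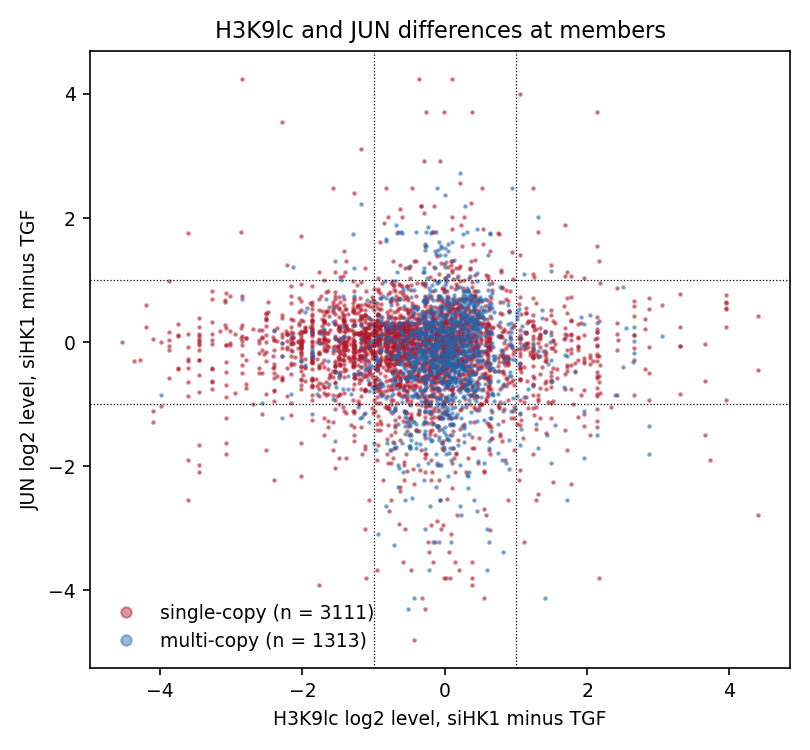
H3K9lc (x axis) against JUN (y axis) log2 differences, siHK1 minus TGF, for each single-copy (red) and multi-copy (blue) member, with dotted lines at 2-fold. The cloud is wide along either axis but thinly filled in the corners, where 60 members are lower in both and 18 higher in both.

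Regions lower in both antibodies lay at several promoters. At Chfr, a mitotic checkpoint ubiquitin ligase gene, TGF had 27 H3K9lc and 21 JUN reads and siHK1 6 and 3. Mpnd, a gene for a protein with a deubiquitinase-type domain, had 30 and 7, and 23 and 5. Fry, which encodes a large protein of the NDR kinase pathway, had 30 and 8, and 24 and 6. The multi-copy regions at Mir101a (73 and 19, and 29 and 7) and 1700061J23Rik (31 and 8, and 13 and 3) and the intron region at Kcnk9 (26 and 7, and 6 and 0, sharing 4 bp) complete this group. The JUN counts here were small, and as the regions were chosen as the lowest in both, these values are a description only. The 6 regions highest in both were Lhcgr, 5730522E02Rik, Grin2b, Dapk2, En2 and Ptprg. Their H3K9lc reads were 13 to 20 in TGF and 13 to 24 in siHK1, and these too were chosen by their values. Ptprg, a receptor tyrosine phosphatase gene, had 89 JUN reads in each library.

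The AP-1 element was more common at members than at other H3K9lc regions and less common than at other JUN regions. It was present in 456 members (10.3%, 9.43 to 11.2%), in 2.98% of H3K9lc regions without JUN and in 24.6% of JUN regions without H3K9lc. Centred on the JUN partner instead, the share was 16.3%. Single-copy members had 13.6% and multi-copy members 2.51%. At single-copy promoters the shares were 5.78% for members, 3.49% without JUN and 14.9% for JUN without H3K9lc. Away from promoters they were 16.7% for members and 28.5% for JUN without H3K9lc, while 1345 of 33660 regions without JUN held it. The letters were searched on both strands, and a match is a description of the sequence only.

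Members overlapped SMAD3 and NFATC2 regions far more often than other H3K9lc regions did. A SMAD3 region shared at least 1 bp with 2204 members (49.8%, 48.3 to 51.3%), against 3.78% of H3K9lc regions without JUN and 16.0% of JUN regions without H3K9lc. For NFATC2 the shares were 46.3%, 4.08% and 13.3%. Both factors overlapped 1632 members (36.9%), against 1.09% and 5.51%. Among single-copy members alone, 39.9% overlapped SMAD3, 36.3% NFATC2 and 26.1% both. The members that all 3 factors shared were the most repetitive, with 50.2% multi-copy, compared with 13.9% of the 1804 members that overlapped neither SMAD3 nor NFATC2.

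H3K9lc and the AP-1 element differed along the same grouping. Members with neither SMAD3 nor NFATC2 had a median H3K9lc difference of -0.41 (-0.47 to -0.32), 13 H3K9lc reads in TGF at the median, and the AP-1 element in 16.1%. Members with both had -0.04 (-0.06 to -0.01), 33 reads, and the element in 4.23%. The members with NFATC2 alone (416) and SMAD3 alone (572) lay between, with -0.32 and -0.28. Within single-copy members the values were -0.49 for neither, -0.52 for NFATC2 alone, -0.38 for SMAD3 alone and -0.17 for both, with the AP-1 element in 17.5% for neither and 7.27% for both. For neither and both, the ratios of summed H3K9lc reads were 0.485 (0.475 to 0.494) and 0.587 (0.583 to 0.592). The part of the repeated sequence in these values was not tested beyond this split.

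**Figure D4:**
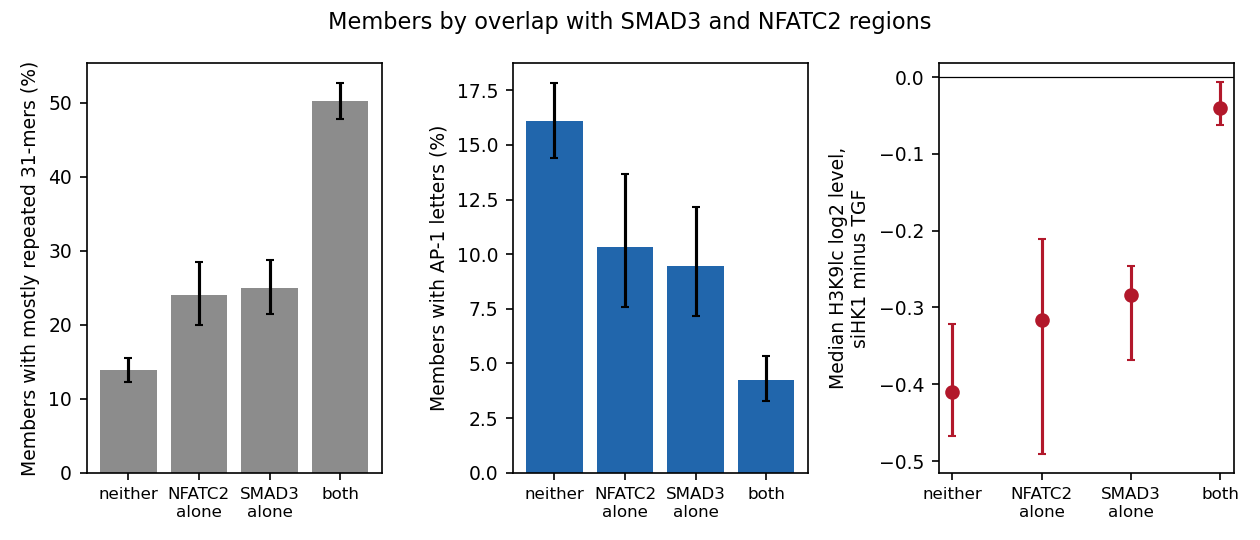
Members grouped by overlap with SMAD3 and NFATC2 regions: share that is multi-copy (%), share with the AP-1 letters (%) and median H3K9lc log2 difference, each with its exact or order-based 95% interval. From neither (n = 1804) to both (n = 1632) the multi-copy share goes from 13.9% to 50.2%, the AP-1 share from 16.1% to 4.23% and the median from -0.41 to -0.04.

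In the NC library, from cells without TGF-β, 3632 members (82.1%) had a matching region in the table of NC against TGF, which held 115572 NC reads and 2313288 TGF reads in all. The NC library is thus 20.02 times smaller in that table. At single-copy members the median was 0 NC reads, and 58.7% had none, where a count of 0 allows up to 3 reads. The summed TGF/NC ratio was 19.9 at single-copy members, 12.3 at multi-copy members and 31.1 at single-copy regions without JUN. The members held 53028 of the NC reads, of which 41208 fell on multi-copy members. At a single-copy member with 0 or 1 NC reads the change with TGF-β was not measurable at this depth. Heavily covered members did have NC reads, with 7656 against 42265 in TGF at Lrrc4c and 1508 against 13272 at Fgf14, ratios below the table's 20.02.

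Among the genes named by the study for fibroblast activation, 5 of 12 had members, with 7 in all. Hk1, the gene targeted by the siRNA, had a promoter and an intron member. The promoter region at chr10:62320098-62320896, 1705 bp from a transcript start, had 26 reads in TGF and 4 in siHK1 (raw ratio 0.154, 0.039 to 0.443), and JUN had 101 and 56 (0.554, 0.393 to 0.776). The intron region at chr10:62300070-62300351 had 9 and 2 H3K9lc reads (0.222, 0.0234 to 1.07, which holds the table's 0.570) and 521 and 349 JUN reads (0.670, 0.583 to 0.769). H3K9lc at the promoter thus lay below the table's ratio of 0.570. Both Hk1 regions had an H3K9lc peak called only in TGF, however. Single-copy members of that kind had a ratio of summed H3K9lc reads of 0.370, which the promoter's interval holds. JUN at the promoter did not depart from 0.539 beyond counting error, and JUN in the intron lay above it. These libraries hold no RNA, so they do not show how far Hk1 was lowered.

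Smyd3, a histone methyltransferase gene, had intron members at chr1:179163345-179164285 and chr1:179041374-179041942. The former had 43 and 13 H3K9lc reads and 37 and 6 JUN reads (JUN ratio 0.162, 0.0559 to 0.388), and 93.9% of its 31-mers are repeated. The latter had 20 and 6 H3K9lc reads and 315 and 193 JUN reads. The H3K9lc difference was -0.97 at both, and that of JUN -1.74 at the repeated one and 0.20 at the other. The member 68.0 kb from Axin2, a negative regulator of WNT signalling, had 653 and 372 H3K9lc reads (0.570, 0.50 to 0.648) and 518 and 257 JUN reads (0.496, 0.426 to 0.577). Both intervals hold the ratio of the whole table. The member 35.9 kb from Col3a1, a fibrillar collagen gene, had 14 and 5 H3K9lc reads and 87 and 38 JUN reads. The member assigned to Lox, the collagen cross-linking lysyl oxidase, had 10 and 6, and 212 and 122. Of the 7, the Hk1 pair was at least 2-fold lower in H3K9lc, a number close to the share over all members (19.4%). Irf7, Slc40a1, Cdk1, Acta2, Postn, Col1a1 and Col1a2 had no member.

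**Figure D5:**
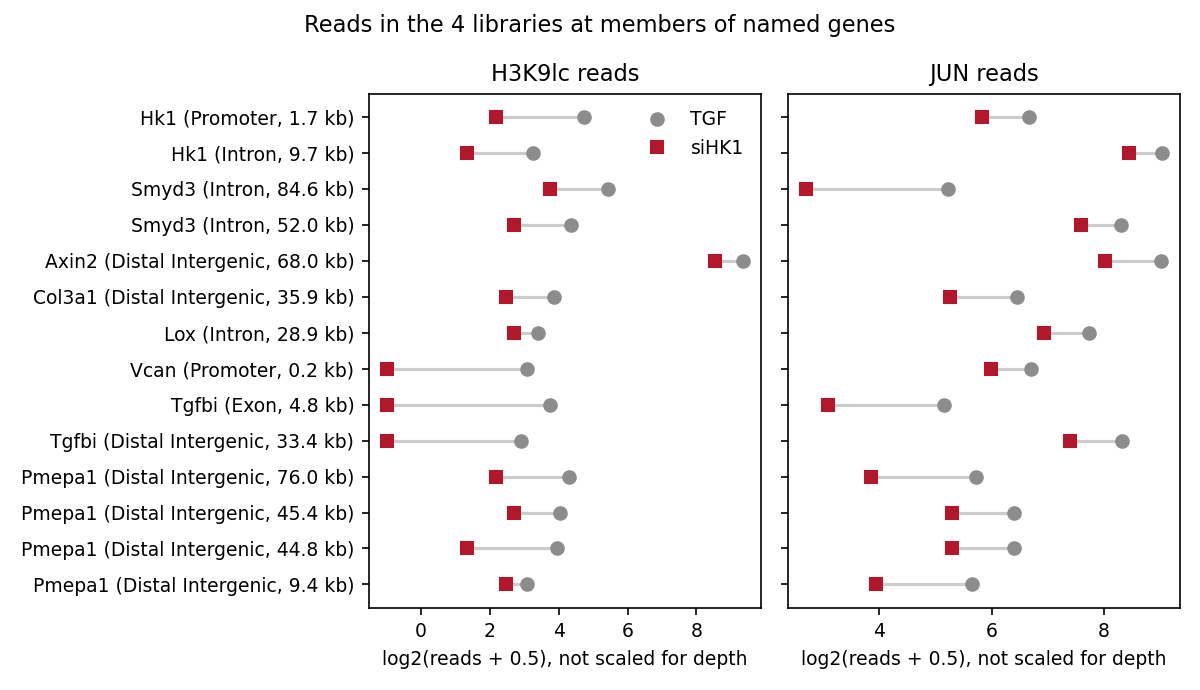
Reads in TGF (grey circles) and siHK1 (red squares) at members assigned to named genes, for H3K9lc (left) and JUN (right), as log2(reads + 0.5) with no correction for depth. Labels give the class and distance to the assigned start, and H3K9lc reached 0 reads in siHK1 at Vcan and at both Tgfbi members.

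Of 36 matrix and matricellular genes, 8 had members, 9 in all, with a median H3K9lc difference of -0.73 and JUN difference of 0.06. H3K9lc was at least 2-fold lower at 2 of the 9 and higher at 1, and JUN lower at 1, numbers close to the shares over all members (19.4%, 7.75% and 11.1%). The promoter of Vcan, the proteoglycan versican, had 8 and 0 H3K9lc reads and 103 and 63 JUN reads. The region near Bgn, the proteoglycan biglycan, had 12 and 3, and 70 and 41. Tnc, tenascin C, had 9 and 3, and 260 and 141. The Thbs2 region shown above had 16 and 6, and 218 and 167 (JUN ratio 0.766, 0.622 to 0.941). The Eln region, which is multi-copy, had 18 and 17 H3K9lc reads and 10 and 0 JUN reads. Near Col6a2 the direction was the other way, with 1 and 6.

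Of 24 genes of the TGF-β pathway, 7 had 14 members, with median differences of -0.27 for H3K9lc and -0.27 for JUN, and with 4 at least 2-fold lower in H3K9lc and 2 in JUN, where 19.4% and 11.1% of all members were. The exon region assigned to Tgfbi and shown above had 13 and 0 H3K9lc reads (upper bound of the raw ratio 0.328). JUN there had 35 and 8 reads (0.229, 0.0916 to 0.502). The distal region assigned to Tgfbi had 7 and 0, and 320 and 168. Pmepa1 had 4 members. The one with the AP-1 element had 15 and 2 H3K9lc reads (0.133, 0.0148 to 0.573), and shares its JUN region (84 and 39 reads) with a neighbour of 16 and 6. The region 76.0 kb from Pmepa1 had 19 and 4 H3K9lc and 52 and 14 JUN reads, at least 2-fold lower in both. Smurf2, a ubiquitin ligase for receptors and SMADs, had multi-copy members with 149 and 80, and 90 and 43. A region assigned to Ltbp2, the gene of a protein related to TGF-β-binding proteins, lay 8518 bp upstream of its start. The annotation places that region in an intron. It had 25 and 13 H3K9lc reads and 352 and 129 JUN reads (0.366, 0.297 to 0.450).

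The remaining lists had few members each. Contractile and adhesion genes had 6 members, 5 of them promoters. The multi-copy promoter region of Flna, filamin A, had 15 and 12 H3K9lc reads and 44 and 10 JUN reads. Myh9, non-muscle myosin, had 10 and 8 H3K9lc reads and 192 and 120 JUN reads. Pdlim7 had 8 and 3, and 802 and 403, and Zyx, zyxin, 8 and 6, and 466 and 250. Of 15 AP-1 family genes, Jund (promoter, 11 and 4, and 131 and 85) and Fos (distal, 10 and 5, and 22 and 6) had 1 member each. Of Hippo pathway genes, Tead1 (73 and 50 H3K9lc reads), Yap1 (44 and 17), Tead3 (22 and 25) and Amotl2 (7 and 8) had 1 each, and none passed 2-fold in either antibody, which for 4 regions is close to the shares over all members (19.4% lower and 7.75% higher for H3K9lc, 11.1% and 3.96% for JUN). Glycolysis genes had 4 members, with the Hk1 pair, Gapdh (11 and 4, and 318 and 160) and Gpi1 (10 and 2, and 130 and 91), of which 3 were at least 2-fold lower in H3K9lc, where 25.1% of single-copy members were, and 0 in JUN, where 9.42% were. Of these 3, the Hk1 pair was already counted above. NFAT and calcineurin genes had 5, at Nfatc2 and Rcan2. In share of the H3K9lc regions assigned to a list, members made up 7.02 to 18.2% over the lists that had any, against 5.92% of all regions. Cardiomyocyte marker regions at Ryr2 and Myl2 (3 members), endothelial ones at Cdh5 and Kdr (4) and 1 at Mylk were among the members, while no region of a leukocyte marker was. The cardiac fibroblast markers Col3a1, Tbx20, Thy1 and Gsn had 1 member each, with 5 to 14 H3K9lc reads in TGF.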

How the data were processed

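CUT&Tag tags chromatin bound by an antibody with a transposase and sequences the tagged DNA. The authors deposited, for each region, read counts per library, a 0 or 1 mark for a called peak, and normalized log2 levels. The deposited log2 levels were found to follow log2(count + 0.5) linearly within each library, with a slope of 1 for siHK1 and 0.964 (H3K9lc) or 0.961 (JUN) for TGF. The study's methods name Bowtie2, GRCm39 and spike-in DNA, and the submitters' processing notes name BWA 0.7.12 and mm10. All 17995 transcripts found in GENCODE vM21 had the same coordinates as in the H3K9lc table, so GRCm38 (mm10) was used, counted from 1, with RefSeq sequence. How reads of repeated sequence were placed is not given in the sources used here. Gene names and classes are those of the deposited annotation, whose nearest-gene assignment does not show a target. The authors' ratio, p-value and call columns were not used, and neither was the library titled TGF with no antibody in its labels. The titles NC and SI name no antibody or target in full, so NC was taken as H3K9lc and SI as siHK1 from the tables that their descriptions name.

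Members and gene lists were chosen with earlier results of these data known. Overlaps, 31-mer copy number and motifs were computed in Python 3.11.15 (numpy 2.4.6, pandas 2.3.3, scipy 1.17.1) and the overlap was tested on simulated and brute-force comparisons. A member took the JUN values of the region sharing most bases. Named members were those above the members' median level with the 6 highest H3K9lc or JUN reads per kb, the 6 lowest and 6 highest H3K9lc differences, and the 6 lower and 6 higher in both, plus gene-list members. Per gene list, values were to be given for up to 4 members with most H3K9lc reads. Kdm1a, Aco1, Pdcd10, Camk2d, Ankrd12, Rn45s, Sfi1, Pisd-ps1, Vcan, Tnc, Col6a2, Tgfbi and the Pmepa1 region with AP-1, the single-copy split and the level quintiles were chosen after seeing the data. Intervals of shares and raw ratios are exact binomial ones, and those of medians come from order statistics. PCR copies are not independent molecules, so these intervals cover counting error only. Alternatives were equal totals, no scaling, a pseudocount of 1, a level minimum, stricter overlap, peaks in both libraries, chromosomes 1 to 19 and X, promoters within 1 kb and the whole region for AP-1.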

Additional observations from a re-analysis of the deposited data

How the results depend on the processing

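No paired analysis was possible because every group is a lone library, and for the same reason no replicate could be left out. The main values are a median H3K9lc difference of -0.20, 860 members lower and 343 higher, a median JUN difference of -0.08, 490 lower and 175 higher, 23.7% at promoters and 10.3% with the AP-1 element. Sharing at least 50% of the shorter region, leaving out chromosome Y and a pseudocount of 1 kept every one of these that they were run on within its interval or within 1.5 times. With equal totals the medians were -0.11 and -0.016. Without scaling they were -0.92 and -0.91, with 2025 and 154 members lower and higher for H3K9lc and 1923 and 64 for JUN. This setting leaves the difference in depth in place, and a uniform change in signal cannot be told apart from it. Among members above the table's median level the H3K9lc median was -0.089, with 147 and 24 calls of 2444, and the JUN median turned to 0.0086, with 65 and 14 of 2628. With JUN peaks called in both libraries (2667 members) the H3K9lc median was -0.33 with 159 higher, the JUN median turned to 0.036 with 34 lower and 22 higher, and 28.5% lay at promoters and 13.3% had the element. With H3K9lc peaks in both libraries (1502 members) the H3K9lc median turned to 0.024 with 14 lower and 10 higher, the JUN median was -0.10 with 176 and 69, and the shares were 14.2% and 6.13%. Requiring a call in both libraries leaves out the regions seen in 1 of them, which narrows the differences of the antibody whose peaks were required. For single-copy members alone, added after seeing the data, the medians were -0.37 and -0.059, JUN calls 293 and 114, and the shares 28.4% and 13.6%. Promoters within 1 kb were 18.2%, and the whole region held the element in 18.9%. With about 15 and 7 H3K9lc reads at a typical single-copy member, a single region shows only large differences.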

Other observations

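Other motifs were searched on both strands. The SMAD letters CAGAC were found in the central 200 bp of 43.1% of single-copy members and 43.5% of single-copy H3K9lc regions without JUN, the NFAT letters TGGAAA in 13.1% and 14.8%, and the TEAD letters GGAATG in 11.6% and 11.7%. Single-copy JUN regions without H3K9lc held them in 45.2%, 18.3% and 14.7%. The CRE letters TGACGTCA, bound by dimers of JUN with ATF proteins, were rare, with 0.739% of single-copy members (0.469 to 1.11%), 0.0737% without JUN (0.0486 to 0.107%) and 0.650% of single-copy JUN regions without H3K9lc. Short letters such as CAGAC occur often by their length alone.

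Several genes collected many single-copy members. Runx1, a transcription factor gene, had 6, of which 3 were at least 2-fold lower in H3K9lc, where 25.1% of all single-copy members were. Summed over the 6, the reads were 221 in TGF and 125 in siHK1, close to the table's ratio of 0.570. A stretch of chromosome 13 assigned to 4921525O09Rik held 6 members that summed to 181 and 63 H3K9lc reads and 511 and 318 JUN reads. The 15 single-copy members assigned to Pisd-ps2 and the 12 assigned to Vmn1r2 lay near the assembled starts of chromosomes 17 and 4, with 31711 and 18186, and 20178 and 11427 H3K9lc reads. By peak calls, 1777 of the 3111 single-copy members (57.1%) had an H3K9lc peak only in TGF, 654 (21.0%) only in siHK1 and 670 (21.5%) in both, against 55.1%, 30.0% and 14.6% of single-copy regions without JUN.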
